A study of Mus musculus with 8 samples.

Results

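The plasma cell identity genes described here are 9 genes, Jchain, Mzb1, Xbp1, Prdm1, Irf4, Sdc1, Ell2, Pou2af1 and Slamf7, out of 51826 genes in the deposited count table. All 9 had 1 entry each in the table and passed the filter on low counts, which kept 16484 genes. They were chosen by results already known from the same comparison of tRA with control in these mice, and 1 of them, Mzb1, is among the genes that the study itself called on these samples, as read from the labels of its published heatmap. Their differences between tRA and control are therefore given as a description, and counts of members passing a threshold are not read as tests.

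RNA sequencing measured the transcripts of total splenocytes from 8 female Balb/c mice, 4 per group. The tRA mice received all-trans-retinoic acid, the active metabolite of vitamin A, by mouth every day from weaning, and the control mice received the vehicle, canola oil, on the same schedule. All mice were 3 months old at harvest, none received pristane, the oil used elsewhere in the study to induce lupus, and all carried the unmodified Balb/c genotype. The labels attach the tRA protocol, 1 mg/kg body weight, to all 8 samples, so the grouping rests on the sample titles, which name each mouse as treated or control. Counts on genes totaled from 30919272 to 37539631 per mouse. Values are given as CPM, a gene's counts per 1000000 counts of its library after TMM scaling of the library sizes, and mice are numbered as in the titles.

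Plasma cells are the terminal state of the B cell lineage and secrete antibody. Prdm1, Irf4 and Xbp1 encode the transcription factors that set up this state, Pou2af1 and Ell2 encode cofactors of transcription, Jchain and Mzb1 encode proteins of antibody assembly, and Sdc1 and Slamf7 encode surface proteins used to recognize the cells. Plasma cells are a small part of the spleen of an unimmunized mouse, and B cells, which are far more numerous, also express Pou2af1, Irf4 and Xbp1, while Slamf7 is also found on NK cells and dendritic cells.

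The 9 genes did not move as a block. The antibody assembly genes Jchain and Mzb1 and the surface marker Sdc1 had lower mean CPM with tRA, with overlapping groups for Jchain. The transcription factors Xbp1, Prdm1 and Irf4, the cofactors Ell2 and Pou2af1, and Slamf7 differed by less than the spread between mice. The mean of Slamf7 was higher with tRA, with overlapping groups. The median log2 fold change of the 9 was -0.002, beside 0.001 for all genes kept. Among the 9, 5 differed by less than the median gene did (0.11 in absolute log2 fold change). By edgeR's quasi-likelihood test, 0 of 9 members and 0% of all genes passed an FDR under 0.1 in either direction. At an unadjusted p under 0.05, 2 of 9 members were lower, beside 3.55% of all genes, and 0 were higher, beside 2.94%. DESeq2 called 0 of 9 members at the same FDR, beside 0.102% of the genes it adjusted as lower and 0.0949% as higher. The study's methods also name DESeq2 with an FDR under 0.1, so its call of Mzb1 was not reproduced here. The reason for this was not tested. The groups did not overlap, with tRA lower, for 2 of 9 members, beside 1.63% of all genes, and with tRA higher for 0 of 9, beside 1.91%. Since the members were chosen with this comparison in view, nothing is read from these counts.

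**Figure D1:**
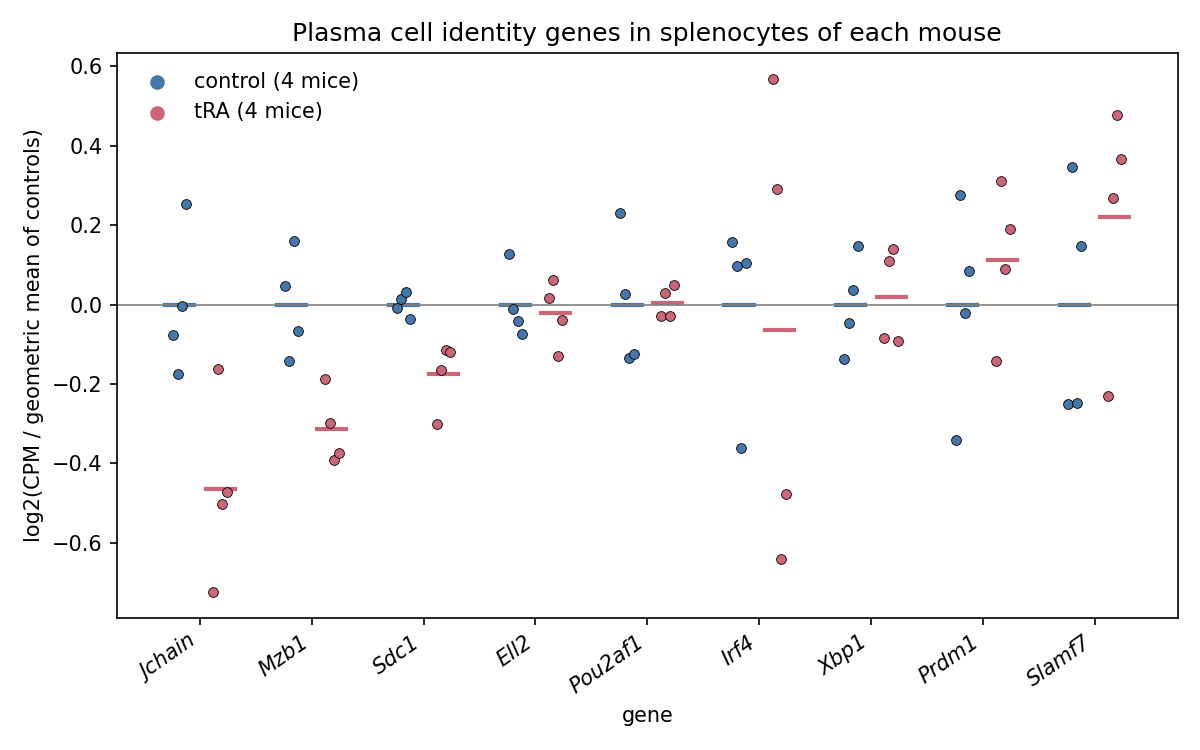
Each point is 1 mouse (blue, 4 control; red, 4 tRA), placed by its log2 CPM minus the mean log2 CPM of the 4 controls, with a bar at the mean of the 4 log2 values. Genes are ordered by log2 fold change, and the tRA points of Mzb1 and Sdc1 all lie below their control points, while Irf4 spans the widest range in tRA.

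Jchain encodes the joining chain, which links IgM into pentamers and IgA into dimers. The gene, ENSMUSG00000067149, lies at chr5:88519809-88527891 on the minus strand (GRCm38). It had 574, 537, 604 and 722 CPM in control mice 1 to 4 and 367, 541, 428 and 436 CPM in tRA mice 1 to 4. In all, 3 of the 4 tRA mice lay below every control, and tRA mouse 2 lay just above the lowest control, so the groups overlapped by this mouse alone. The means were 609 ± 80.3 CPM in control and 443 ± 72.3 CPM in tRA (SD, n = 4), a log2 fold change of -0.46 ± 0.13 (SE). Counts on Jchain ran from 12008 to 22352 per mouse, so counting error, 0.913% at the lowest count, was far below the spread between mice. In these bulk samples, fewer cells of a type and less RNA per cell cannot be told apart.

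Mzb1 encodes a chaperone of the endoplasmic reticulum that assists antibody folding in marginal zone B cells and plasma cells. The gene, ENSMUSG00000024353, lies at chr18:35647267-35649367 on the minus strand. Its levels were 87.2, 76.5, 94.4 and 80.6 CPM in control mice 1 to 4 and 74.2, 68.6, 64.4 and 65.1 CPM in tRA mice 1 to 4. All 4 tRA mice lay below all 4 controls, the nearest pair being tRA mouse 1 and control mouse 2. The means were 84.7 ± 7.84 and 68.1 ± 4.47 CPM (SD, n = 4), a log2 fold change of -0.31 ± 0.08 (SE). In the annotation, its exons overlap those of SPATA24 on the same strand, which has no row of its own in the matched table, and reads from both genes could have been counted together.

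Sdc1 encodes syndecan-1 (CD138), a heparan sulfate proteoglycan that is the usual surface marker of plasma cells. The gene, ENSMUSG00000020592, lies at chr12:8771323-8793715 on the plus strand. It had 16.7, 17.0, 17.2 and 16.4 CPM in control mice 1 to 4 and 13.7, 15.0, 15.5 and 15.5 CPM in tRA mice 1 to 4. The 4 controls were tightly grouped, and every tRA mouse lay below them, tRA mouse 1 by the most. The nearest pair was tRA mouse 3 and control mouse 4, at 3.96 and 4.04 in log2 CPM. The means were 16.8 ± 0.348 and 14.9 ± 0.873 CPM (SD, n = 4), a log2 fold change of -0.17 ± 0.08 (SE). Between 447 and 617 counts per mouse support these values, and the SD within groups, 0.0645 on the log2 scale, is close to the counting error at the mean count, 0.0625.

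The other surface gene, Slamf7, encodes a receptor of the SLAM family (CD319). It lies at chr1:171632403-171653035 on the minus strand (ENSMUSG00000038179) and had 30.7, 46.4, 30.7 and 40.5 CPM in control mice and 31.1, 44.0, 50.8 and 47.1 CPM in tRA mice. As many as 3 tRA mice stood near or above the highest control, and tRA mouse 1 stood with the lowest controls, so the groups overlapped. The log2 fold change was 0.22 ± 0.17 (SE), close to its error, and it was 0.02 without tRA mice 3 and 4. An antisense transcript, Gm37787, overlaps its exons, and the sources used here do not say whether counting used the strand.

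Of the transcription factors, Xbp1 encodes the factor of the unfolded protein response that enlarges the secretory apparatus once its RNA is spliced by the product of Ern1. It lies at chr11:5520659-5525893 on the plus strand (ENSMUSG00000020484) and had 103, 110, 116 and 125 CPM in control mice and 107, 122, 125 and 106 CPM in tRA mice. The ranges were nearly the same, and the log2 fold change was 0.02 ± 0.08 (SE), with its sign turning when control mouse 1, tRA mouse 2 or tRA mouse 3 was left out. Gene counts do not separate the spliced from the unspliced form.

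Prdm1 encodes Blimp-1, a repressor that shuts off B cell genes as plasma cells form. It lies at chr10:44437177-44528501 on the minus strand (ENSMUSG00000038151) and had 13.3, 20.4, 16.6 and 17.9 CPM in control mice and 15.3, 20.9, 17.9 and 19.2 CPM in tRA mice. Both groups had their lowest value in mouse 1 and their highest in mouse 2, and the log2 fold change was 0.11 ± 0.14 (SE). It ran from 0.003 without control mouse 1 to 0.20 without control mouse 2, so single mice set its size.

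Irf4 encodes an interferon regulatory factor that activated B cells raise on the way to plasma cells. It lies at chr13:30749226-30766976 on the plus strand (ENSMUSG00000021356) and had 276, 265, 193 and 266 CPM in control mice and 367, 302, 159 and 178 CPM in tRA mice. The tRA group split, with mice 1 and 2 above every control and mice 3 and 4 below every control. Its mean was 250 ± 38.4 CPM in control and 251 ± 100 CPM in tRA (SD, n = 4), and the log2 fold change of 0.01 ± 0.24 (SE) averages over this split. Leaving out 1 mouse at a time moved it from -0.23 (without tRA mouse 1) to 0.18, and without tRA mice 3 and 4 together it was 0.42.

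Immediate early and heat shock genes, which cells raise within minutes of activation or handling, were lowest in the same tRA mice 3 and 4. The 10 genes of that list summed to 15764, 14874, 16399 and 13175 CPM in control mice 1 to 4 and to 13094, 11431, 5460 and 7868 CPM in tRA mice 1 to 4. All 10 had negative log2 fold changes, with a median of -0.64, 5 of them without overlap between the groups. By edgeR, 6 were lower at an unadjusted p under 0.05 and 0 at an FDR under 0.1, while DESeq2 called 2, Egr1 and Jun, as lower. The most abundant was Fos, with 1117 and 1420 CPM in tRA mice 3 and 4 and 2762 or more in the other 6 mice, and no gene of the list was at 0. Within the tRA group, Irf4 and these sums put the mice in the same order, with mouse 1 highest, then mice 2, 4 and 3. In tRA mice 1 and 2, Irf4 was above every control while the sums were below every control. Control mouse 3, with the lowest Irf4 of its group, had the highest sum. Without tRA mice 3 and 4 the log2 fold changes of Jchain, Mzb1 and Sdc1 were -0.43, -0.25 and -0.23, and the median of the list was still -0.34. The part of these stress genes in the values of Irf4, Jchain, Mzb1 and Sdc1 was not tested.

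Pou2af1 and Ell2, the cofactors, had close means in the 2 groups. Pou2af1 encodes OCA-B, the coactivator of octamer-binding proteins on antibody genes, and lies at chr9:51213708-51240080 on the plus strand (ENSMUSG00000032053). It had 534, 463, 415 and 417 CPM in control mice and 446, 464, 446 and 471 CPM in tRA mice. The 4 tRA mice fell inside the control range, at 457 ± 55.7 CPM in control and 457 ± 12.7 CPM in tRA (SD, n = 4). Its log2 fold change was -0.002 ± 0.09 (SE), a value whose sign turned in 9 of 15 alternatives, RLE scaling, library size alone and DESeq2 among them.

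Ell2 encodes an elongation factor of RNA polymerase II that favors the secreted form of the antibody heavy chain transcript. It lies at chr13:75706757-75772364 on the plus strand (ENSMUSG00000001542) and ranged from 38.7 to 44.5 CPM in control mice and from 37.2 to 42.6 CPM in tRA mice. The log2 fold change was -0.02 ± 0.07 (SE), with its sign turning in 4 of 15 alternatives. The annotation places the antisense transcript 1700037F03Rik and the small nucleolar RNA Gm23127 over its exons, and their reads may not be separated from those of Ell2.

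Summed over the 9 genes, CPM were 1679, 1575, 1526 and 1725 in control mice 1 to 4 and 1462, 1621, 1343 and 1377 in tRA mice 1 to 4. Without Jchain the sums were 1017 ± 76.2 CPM in control and 1008 ± 92.8 CPM in tRA (SD, n = 4), so the lower sum with tRA was almost all Jchain. Jchain made up from 34.1% to 41.9% of the members' CPM in control mice and from 25.1% to 33.4% in tRA mice, with no overlap.

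Levels can be set side by side once CPM are divided by the length of the merged exons of each gene, in CPM per kilobase (RPKM). Averaged over the 8 mice, Jchain stood at 209 RPKM, Pou2af1 at 179, Mzb1 at 62.9, Irf4 at 51.1, Xbp1 at 35.2, Slamf7 at 8.78, Sdc1 at 4.16, Ell2 at 4.12 and Prdm1 at 3.17. The highest level was 65.9 times the lowest, and 6 of the 9 lay above the median gene kept, at 4.19 RPKM. Ranges over the 8 mice overlapped between the neighbors Jchain and Pou2af1, Mzb1 and Irf4, Irf4 and Xbp1, and Sdc1 and Ell2, and they did not overlap between the other neighbors. Jchain exceeded Pou2af1 in 4 of 4 control mice but in 1 of 4 tRA mice, tRA mouse 2. Over the tRA group the mean of Jchain was lower, and Pou2af1 lay within its control range. Jchain was 6.31 to 7.43 times as abundant as Xbp1 per length in control mice and 4.42 to 5.71 times in tRA mice. The low levels of Sdc1 and Prdm1 and the high level of Pou2af1 stood beside a strong B cell signal, with Cd79a, a chain of the B cell receptor, at 915 RPKM.

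**Figure D2:**
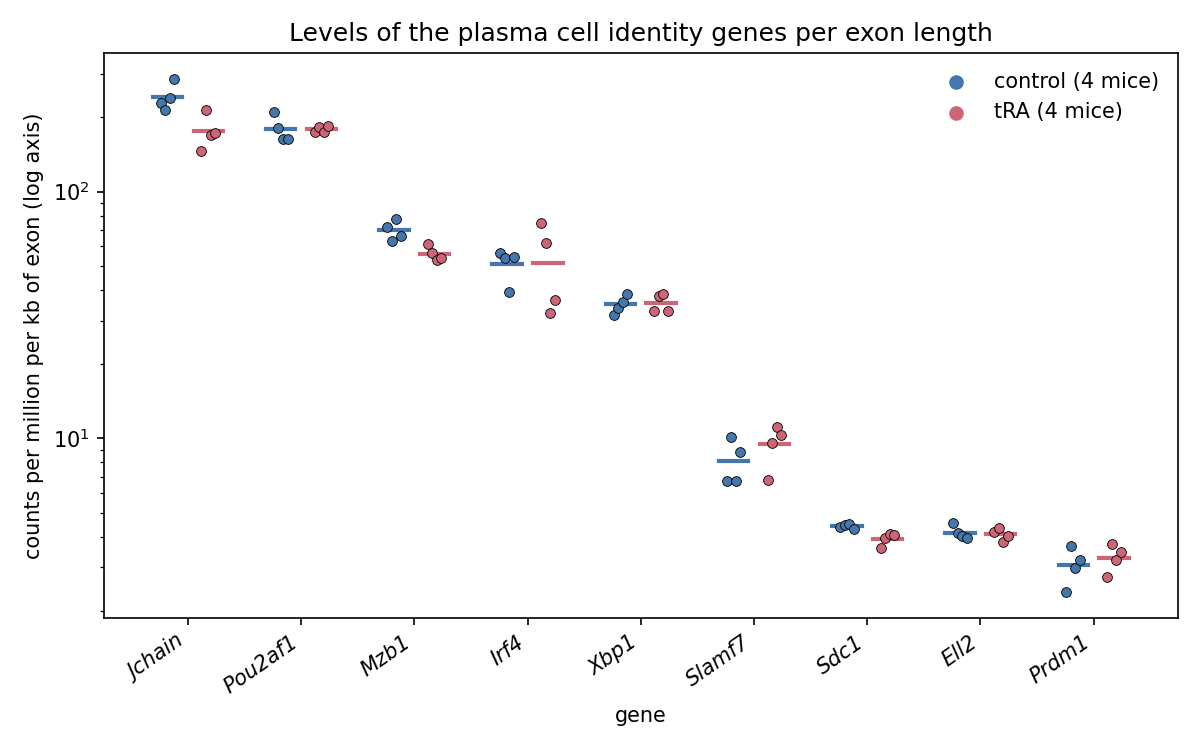
Levels in each mouse (blue, 4 control; red, 4 tRA) in CPM per kilobase of merged exon, on a log axis, with a bar at the arithmetic mean of each group. Jchain and Pou2af1 lie highest and Prdm1 lowest, and the order of Jchain and Pou2af1 differs between most control and most tRA mice.

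The members also varied to different degrees among mice of the same group. The SD of log2 CPM within groups was 0.45 for Irf4, larger than for 84.0% of all genes kept, 0.30 for Slamf7, 0.23 for Prdm1 and 0.21 for Jchain. It was between 0.06 and 0.12 for Sdc1, Ell2, Mzb1, Xbp1 and Pou2af1, below the median gene at 0.19. The biological coefficient of variation fitted by edgeR for Irf4 was 0.24, 2.13 times the trend at its level, while that of Sdc1 was 0.66 times the trend.

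The antibody genes themselves were read as shares of counts, a measure that did not enter the choice of members. The list of antibody constant genes was, like the members, chosen with earlier results of these data known. The tests of these shares therefore do not stand apart from those results. Immunoglobulin genes took 1.97%, 2.03%, 1.94% and 2.36% of all counts in control mice 1 to 4 and 1.59%, 2.03%, 2.09% and 1.89% in tRA mice 1 to 4. The groups overlapped, and the difference of -0.176 percentage points had p = 0.371 (exact permutation test, two-sided, n = 4 per group; adjusted p = 0.371 over 3 such tests). It was -0.0732 without tRA mouse 1 and -0.0823 without control mouse 4. B cells, whose IgM and IgD receptors use Ighm and Ighd, also transcribe these genes.

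Within the heavy chain constant genes, the share of Igha, which encodes the heavy chain of IgA, was 0.706%, 0.94%, 0.896% and 1.02% in control mice and 1.10%, 1.47%, 1.61% and 1.40% in tRA mice. All 4 tRA mice lay above all 4 controls, by 0.503 percentage points on average, with p = 0.0286 (exact permutation test, two-sided, n = 4 per group), the smallest that 4 against 4 can give, and adjusted p = 0.0857. As a share of all counts rather than of heavy chain counts, Igha overlapped between the groups (p = 0.114, exact permutation test). The exact permutation p of its heavy chain share was 0.0571 when any 1 control mouse was left out. The difference in those cases was 0.441 to 0.546 percentage points, about as large as with all mice. The share of Ighm was 86.3% ± 1.42 in control and 82.9% ± 1.30 in tRA (SD, n = 4), a difference of -3.38 percentage points (p = 0.0571, exact permutation test; adjusted p = 0.0857). With 1 mouse left out its exact permutation p ran from 0.0286 (without tRA mouse 2) to 0.0857, and as a share of all counts the difference was -0.122 (p = 0.257). Neither share passed 0.05 after adjustment. With 3 tests, 1 share alone at the smallest possible p adjusts to 0.0857, so Igha could not pass unless another share also reached it. The shares of Igha and Ighm also have the same denominator and are not separate results. Ighd made up most of the rest, at 11.8% in control and 14.6% in tRA. The 12 constant genes kept, light chains included, had a median log2 fold change of -0.04, with 1 higher and 0 lower at an unadjusted p under 0.05. This median was -0.18 without tRA mouse 3 and turned to 0.04 without control mouse 4 and to 0.01 without tRA mouse 1. It was -0.11 when at least 10 counts were required in every library. The annotation used here follows C57BL/6 and has no Ighg2a, the IgG2a gene of Balb/c mice, so the denominator may miss that class.

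Jchain, which pairs with IgM and IgA, was also read relative to their heavy chain genes. Per 100 counts on Igha and Ighm together there were 5.87, 5.47, 5.95 and 6.09 Jchain counts in control mice 1 to 4 and 4.76, 5.45, 4.33 and 5.09 in tRA mice 1 to 4. The values of control mouse 2 and tRA mouse 2 nearly met, and no tRA mouse exceeded a control. Most of these counts were on Ighm, and per 100 counts on Ighm alone the groups overlapped, as tRA mouse 2 (5.544) stood just above control mouse 2 (5.530). Per count on Igha there were 4.98 to 7.19 Jchain counts in control mice and 2.26 to 3.63 in tRA mice, with no overlap. Igha itself had between 79.8 and 136 CPM in control mice and between 101 and 189 CPM in tRA mice (log2 fold change 0.50 ± 0.19 SE, edgeR FDR = 0.757, higher mean in tRA with overlapping groups). Igkc, the kappa light chain constant gene, was lower in 4 of 4 tRA mice than in any control (log2 fold change -0.18 ± 0.09 SE, edgeR FDR = 0.780), but tRA mouse 2 and control mouse 2 nearly met, at 4996 and 4998 CPM.

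**Figure D3:**
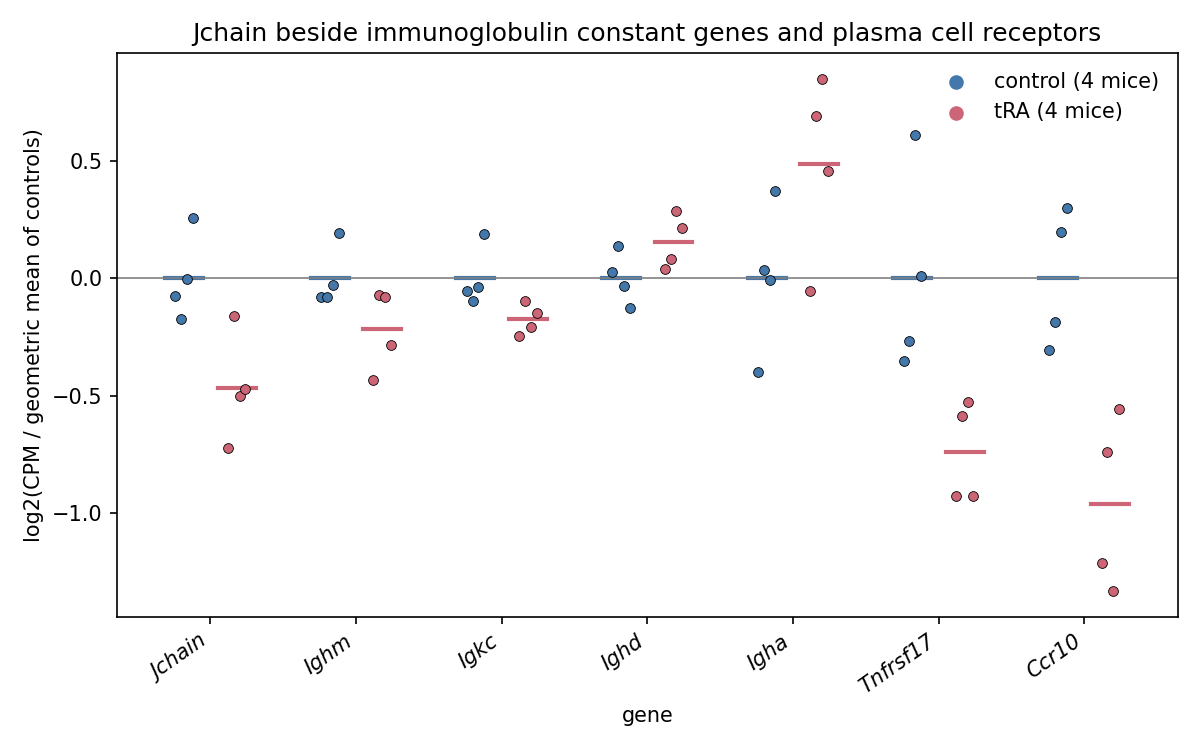
Jchain beside antibody constant genes and the receptor genes Tnfrsf17 and Ccr10 in each mouse (blue, 4 control; red, 4 tRA), as log2 CPM minus the mean log2 CPM of the 4 controls, with a bar at the mean of each group. The tRA points of Tnfrsf17 and Ccr10 lie below all their controls, the highest tRA point of Igkc nearly meets its lowest control, and Igha has a higher tRA mean.

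A list of 17 other plasma cell genes is given as counts, with no test of the list. It had 15 genes with a negative log2 fold change, beside 49.7% of all genes kept, and a median of -0.15 beside 0.001. By edgeR, 4 genes were lower and 0 higher at an unadjusted p under 0.05, beside 3.55% and 2.94% of all genes, and edgeR and DESeq2 each called 0 at an FDR under 0.1. Its genes that reached an unadjusted p under 0.05 were Ccr10, Tnfrsf17, Derl3 and Eaf2. Ccr10, the receptor that draws antibody-secreting cells to mucosal surfaces, had 1.49, 1.62, 2.11 and 2.26 CPM in control mice and 0.794, 1.10, 0.732 and 1.25 CPM in tRA mice (log2 fold change -0.95 ± 0.25 SE, lower in 4 of 4 tRA mice, edgeR FDR = 0.757), on only 26 to 73 counts per mouse. Tnfrsf17, which encodes the survival receptor BCMA, had 1.41, 1.49, 2.74 and 1.81 CPM in control mice and 0.947, 1.20, 1.25 and 0.947 CPM in tRA mice. All 4 tRA mice were below the controls for Tnfrsf17 (log2 fold change -0.78 ± 0.26 SE, edgeR FDR = 0.757), on 31 to 95 counts per mouse. Derl3, a component of endoplasmic reticulum degradation, had a log2 fold change of -0.39 ± 0.16 (SE), and Bhlha15, a factor of secretory cells, of -0.22 ± 0.14 (SE), both with overlapping groups. The most abundant gene of the list, the chemokine receptor Cxcr4, had 1540, 1108, 952 and 1029 CPM in control mice and 1629, 1111, 260 and 404 CPM in tRA mice. As for Irf4, tRA mice 3 and 4 lay below every control, but tRA mouse 2 lay within the control range.

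The partners of single members gave few differences. Around Xbp1, the 12 genes of the unfolded protein response had a median log2 fold change of -0.12, with 9 negative and 3 positive, 1 lower and 0 higher at an unadjusted p under 0.05. This median was -0.06 without tRA mouse 3 or without tRA mouse 4 and 0.01 without both, and Hspa5 was lower in these mice than in all 6 others. The gene at that p was Sec61b, a subunit of the translocon (log2 fold change -0.41 ± 0.12 SE, edgeR FDR = 0.757), while Ern1 stood at 0.04 ± 0.15 and the chaperone Hspa5 at -0.23 ± 0.14 (SE). Around Ell2, the 10 elongation genes had a median of -6.6e-05, and Eaf2, which binds ELL proteins and is raised in plasma cells, had 8.09, 6.10, 7.19 and 7.14 CPM in control mice and 6.35, 6.68, 4.50 and 4.37 CPM in tRA mice. The groups of Eaf2, also counted in the list of other plasma cell genes, overlapped through tRA mice 1 and 2 (log2 fold change -0.38 ± 0.17 SE, edgeR FDR = 0.757). Around Pou2af1, the octamer-binding partners Pou2f1 and Pou2f2 stood at -0.04 ± 0.12 and 0.12 ± 0.10 (log2 fold change ± SE).

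Relatives of Slamf7, Sdc1 and Irf4 were also read. Among 10 genes of the SLAM family and its adaptors, 6 had a positive log2 fold change, 2 (Slamf1 and Slamf6) were higher and 0 lower at an unadjusted p under 0.05 by edgeR, and the median was 0.07, or 0.03 without tRA mouse 3 and 0.005 without tRA mice 3 and 4. Slamf6 had 322 to 361 CPM in control mice and 369 to 407 CPM in tRA mice, with no overlap (log2 fold change 0.18 ± 0.07 SE, edgeR FDR = 0.757). The 3 other syndecans were all below 0 with overlapping groups, Sdc3 and Sdc4 at log2 fold changes of -0.17 and -0.27. Of 8 other interferon regulatory factors, 7 were below 0, with a median of -0.05 and 0 at an unadjusted p under 0.05.

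The factors that hold the B cell state, several of which Blimp-1 represses, had small log2 fold changes of either sign. The 9 genes of that list had a median log2 fold change of 0.05, from -0.10 for Id3 to 0.19 for Bcl6, with Pax5 at -0.03 ± 0.10, Bach2 at 0.18 ± 0.11, Irf8 at -0.10 ± 0.07 and Spib at -0.07 ± 0.12 (SE), and 0 of 9 at an unadjusted p under 0.05. The median turned sign without control mouse 3, control mouse 4 or tRA mouse 1. The 8 B cell surface genes had a median of 0.02 and summed to between 6315 and 7302 CPM in control mice and between 6837 and 7087 CPM in tRA mice. Receptors that feed plasma cell differentiation had a median of -0.006 over 10 genes, with Tnfrsf17 as the gene at an unadjusted p under 0.05. Tnfrsf17 was already counted in the list of other plasma cell genes. The 10 proliferation genes had a median of -0.07, with 0 at an unadjusted p under 0.05. The median of the proliferation genes rested on single mice, at -0.32 without tRA mouse 3 and 0.04 without tRA mouse 1.

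Markers of other splenic cells were read beside the members. The 9 genes of neutrophil precursors all had negative log2 fold changes (median -0.88; by edgeR 8 lower at an unadjusted p under 0.05 and 0 at an FDR under 0.1; by DESeq2 4 called as lower, Camp, Ngp, Ltf and Lcn2; none at 0 counts), and they summed to 553, 699, 738 and 633 CPM in control mice and 252, 315, 345 and 492 CPM in tRA mice, Ngp being the most abundant. Without tRA mouse 4, edgeR called Camp, Ngp and Ltf of this list. This difference ran in the same direction as that of Jchain, Mzb1 and Sdc1, and its part in their values was not tested. Erythroid genes, of which Hbb-bs was the most abundant, summed to 823, 1549, 2411 and 499 CPM in control mice and 2294, 633, 3573 and 597 CPM in tRA mice, with a spread that did not follow the groups. The median log2 fold changes were 0.11 for T cell genes, -0.05 for NK cell genes, -0.02 for macrophage genes, -0.12 for dendritic cell genes and -0.10 for stromal genes, and 0.43 for the erythroid genes. Of the dendritic cell genes, 1 was higher at an unadjusted p under 0.05, Ccr9 (log2 fold change 0.45 ± 0.16 SE, edgeR FDR = 0.757). Single mice turned the sign of several of these: the erythroid median was -0.16 without tRA mouse 3, and the dendritic cell median was 0.05 without control mouse 4 or without tRA mouse 1, while NK cell and macrophage medians turned sign without 2 and 3 of the 8 mice. The T cell and stromal medians kept their signs but ran from 0.04 to 0.19 and from -0.23 to -0.02 with 1 mouse left out.

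Genes whose profile over the 8 mice was nearest to that of a member were found by the root mean square difference of centered log2 CPM. The 5 nearest to Jchain were Iglv2, a lambda light chain variable gene, at 0.11, and Gpr176, St14, Cadm3 and Arhgap20 at 0.12 to 0.14, while the median over all genes was 0.35. The members nearest to Jchain were Sdc1 (0.23, rank 227 of 16483) and Mzb1 (0.23, rank 260), and Irf4 was among the farthest (0.48, rank 13340). The reverse did not hold: Jchain had rank 8863 among the genes nearest to Sdc1 and rank 6216 among those nearest to Mzb1. The profiles include the difference between the groups, which was known when the members were chosen, so nearness among lower genes partly restates it. Mzb1 was nearest to Sssca1, Ndufa4, Myl6, Anapc13 and Dut, at 0.04 to 0.06. Sdc1 was nearest to Apobec3, Pld4, Sh3tc1, Syngr2 and Gna12, at 0.04 to 0.05. The measure favors genes of low spread, and the 3 sets of 5 shared no gene.

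Promoter windows from RefSeq (GRCm38.p6; 250 bases before to 50 bases after the start of transcription) were matched for 8 of the 9 genes, and Mzb1 had no entry. Motifs were searched by their letters on both strands. The octamer ATGCAAAT, bound by the partners of Pou2af1, was in 0 of 8 windows and in 1.74% of 32851 windows of all genes, and AGTGAAAG, a core of the Blimp-1 site, was in 0 of 8 and 1.32%. TGACGTGG, a core bound by spliced Xbp1, was in 1 of 8, Pou2af1, beside 0.676% of all windows, and CCACG, which lies within the reverse complement of that core, was in 4 of 8 (Irf4, Pou2af1, Prdm1 and Sdc1) beside 32.8%. The hexamer AGGTCA, a partial site shared by RAR, RXR and many other nuclear receptors, was in 1 of 8, Jchain, beside 16.3%, and the E-box CANNTG was in 8 of 8 beside 72.3%. A match describes the letters and shows no binding.

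The windows of Jchain and Sdc1 are printed since both had lower values with tRA, and that of Pou2af1 since its groups hardly differed and it carries the TGACGTGG core. They lie at chr5:88527848-88528147 (minus strand), chr12:8771146-8771445 (plus strand) and chr9:51213440-51213739 (plus strand). Capitals mark AGGTCA in Jchain, CCACG on the opposite strand in Sdc1, and in Pou2af1 CCACG on either strand and the TGACGTGG core, whose last 5 letters are also the opposite-strand CCACG.
Jchain: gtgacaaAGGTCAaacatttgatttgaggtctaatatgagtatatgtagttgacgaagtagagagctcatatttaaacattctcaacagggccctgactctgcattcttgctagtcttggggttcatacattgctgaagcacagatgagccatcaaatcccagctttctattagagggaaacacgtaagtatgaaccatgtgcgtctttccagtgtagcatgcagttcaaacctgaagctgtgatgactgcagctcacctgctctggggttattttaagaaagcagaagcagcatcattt
Sdc1: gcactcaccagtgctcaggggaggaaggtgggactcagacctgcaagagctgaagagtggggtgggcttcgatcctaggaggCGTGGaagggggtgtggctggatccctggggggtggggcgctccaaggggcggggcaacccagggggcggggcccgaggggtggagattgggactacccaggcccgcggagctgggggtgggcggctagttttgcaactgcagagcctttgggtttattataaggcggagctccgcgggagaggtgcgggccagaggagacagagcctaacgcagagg
Pou2af1: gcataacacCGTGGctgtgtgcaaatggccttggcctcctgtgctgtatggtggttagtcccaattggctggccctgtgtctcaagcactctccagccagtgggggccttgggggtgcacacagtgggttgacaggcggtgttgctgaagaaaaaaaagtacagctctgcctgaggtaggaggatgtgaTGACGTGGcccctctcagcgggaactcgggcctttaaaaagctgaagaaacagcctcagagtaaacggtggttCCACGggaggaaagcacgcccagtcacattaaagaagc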

How the data were processed

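Total RNA of splenocytes was sequenced from TruSeq v2 libraries on 1 HiSeq2500 lane, and the authors deposited raw counts per gene, without normalization. The study's methods name ea-utils and Btrim, Bowtie2 and Tophat2, and HTSeq, whereas the submitters' processing notes name STAR 2.5.2b, featureCounts 1.5.1, DESeq2 1.26.0 and GRCm38. Which of them made the counts, and the strand setting, are not given in the sources used here. A second deposited file holds the authors' own DESeq2 comparison and was not used. Of 51826 identifiers, 51633 matched GENCODE M21, the source of symbols, positions and exon lengths.

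Counts were analysed with edgeR 4.0.16 in R 4.3.3 (filterByExpr with a minimum of 10 counts, TMM, glmQLFit and glmQLFTest, Benjamini-Hochberg FDR under 0.1 over all genes kept), tested on simulated data. Log2 fold changes are tRA minus control, with SE derived from the quasi-likelihood F. Single values per mouse were compared by exact permutation tests. The alternatives were DESeq2 1.42.0, RLE, library size alone, other filters, the replicate number as a block and each library left out. Leaving out tRA mice 3 and 4 together was chosen after seeing the data.

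The members and 20 further lists were chosen with earlier results of these data known. Genes were named from the members, fixed partners, the most abundant and lowest-p genes of each list (not all are named), and the nearest 5 profiles to Jchain, Mzb1 and Sdc1; those to Xbp1 are not reported here. Derl3, Slamf1, Egr1, Ltf, Lcn2 and Ighd were named after their values were seen. Figures used Python with matplotlib.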

Additional observations from a re-analysis of the deposited data

Results flagged for a closer look

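Of 100 groups of 4 mice examined over 50 quantities, 4 held a mouse far from the other 3, where chance gives about 1 in 20. Irf4 had 193 CPM in control mouse 3, while the other controls had between 265 and 276. The antibody constant genes summed to 20063 CPM in control mouse 4, beside 17155 to 17584 in the other controls. The receptors that feed plasma cell differentiation summed to 829 CPM in tRA mouse 1, beside 873 to 877 in the other tRA mice, and the NK cell genes to 285 CPM in tRA mouse 4, beside 321 to 326.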

How the results depend on the processing

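The median log2 fold change of the members moved by less than the spread between mice in 15 of 15 alternatives, as did the 9 single log2 fold changes in all 135 cases. Leaving out 1 of 4 mice can hardly move the value of a single gene by more than that spread. Little is therefore read from these counts, and Irf4 ran from -0.23 to 0.42. Jchain stayed between -0.57 and -0.37, Mzb1 between -0.36 and -0.25 and Sdc1 between -0.23 and -0.13, Prdm1 between 0.003 and 0.20 and Slamf7 between 0.02 and 0.35, while Xbp1, Irf4, Ell2 and Pou2af1 changed sign in 3, 4, 4 and 9 of 15. The groups of Jchain did not overlap with library size alone, without control mouse 2 or without tRA mouse 2. The 0 genes called by edgeR became 27 with DESeq2 (14 lower, 13 higher), which also used its own filter in place of that on low counts, and 6 in edgeR with no filter on low counts. Leaving out 1 mouse gave 0 to 3 calls, the 3 (Camp, Ngp and Ltf) without tRA mouse 4. No member was among the calls of any alternative. Genes at an unadjusted p under 0.05 numbered 1070, and from 657 (without tRA mouse 4) to 2105 (without tRA mouse 1) with 1 mouse left out. With library size alone they split into 501 lower and 657 higher, beside 585 and 485. The 584 genes without overlap became 2110 without tRA mouse 1 and 856 to 1101 without any 1 of the other mice. Fewer samples overlap less often, but these cases all had the same number of mice. What set the case without tRA mouse 1 apart was not tested. Without tRA mice 3 and 4, chosen after seeing the data, there were 3 calls, 678 genes at that p and 2068 without overlap. The Igha share difference was 0.431 to 0.602 percentage points with 1 mouse left out (exact permutation p from 0.0286 to 0.0571) and 0.00472 as a share of all counts. The Ighm share difference was -4.01 to -2.75 (exact permutation p from 0.0286 to 0.0857) and -0.122 as a share of all counts (p = 0.257). The immunoglobulin share difference was -0.241 to -0.0732 with 1 mouse left out (exact permutation p from 0.229 to 0.743), so it kept its sign but changed in size. Of 300 list medians in the alternatives, 5 moved by more than the spread between mice, those of the proliferation and antibody constant genes without tRA mouse 3 and without tRA mice 3 and 4, and that of the neutrophil precursors without tRA mice 3 and 4. The median turned sign in at least 1 case with 1 mouse left out for 11 of 20 lists.

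Same-numbered mice deviated together only in part (correlations 0.157, -0.0229, -0.014 and 0.259), so the shared numbers were not taken as pairs. With the replicate number fitted as a replicate block, 0 genes were called, 1200 had an unadjusted p under 0.05, the member median was -0.02 and the immunoglobulin share difference was -0.176 (exact sign-flip p = 0.375).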
